A study of Mus musculus with 2 samples.

Results

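The BCL2 family of survival and death genes was described in 10 members, Bcl2a1a, Bcl2a1b, Bcl2a1d, Mcl1, Bcl2, Bcl2l1, Bcl2l11, Bax, Pmaip1 and Cflar. The members were chosen by name from the 32285 genes of the matrices, with earlier results of these data known, and all 10 were found. They were followed across marker-defined cell classes, neutrophil-like cells above all, in myeloid cells sorted as CD11b+ and CD11c+ from colorectal polyps of C57BL6/J mice. The mice were 26 weeks old and were taken 16 weeks after azoxymethane (AOM), a colon carcinogen, which was followed by 3 cycles of 1% dextran sulfate sodium (DSS), a polymer that injures the colon lining. One library came from wild-type (WT) mice and one from mice without Dectin-1 (Clec7a-/-, KO), 5 and 4 mice pooled. AOM and DSS were given to both groups, so no untreated cells were compared, and with 1 library per genotype there was no test between genotypes. Every interval below is a 95% interval for counting error only and holds nothing of the spread between mice.

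Mitochondrial apoptosis is governed by the balance of proteins of the BCL2 family. Pro-survival members (MCL-1, BCL-XL encoded by Bcl2l1, BCL2, and A1 encoded by the Bcl2a1 genes) hold back the pore-forming effectors BAX and BAK, and BH3-only members such as BIM (Bcl2l11) and NOXA (Pmaip1) bind the pro-survival proteins and release the effectors. Cflar encodes c-FLIP, which blocks caspase-8 at death receptors. Neutrophils are short-lived, depend on MCL-1, and use A1 as an inducible survival factor.

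In the mouse, A1 is encoded by near-identical copies on chromosome 9. By the GENCODE M21 annotation of GRCm38, Bcl2a1a lies at chr9:88956900-88962419, Bcl2a1b at chr9:89199209-89207827 and Bcl2a1d at chr9:88723285-88731914, the last on the minus strand. Their transcripts shared 98.2% (Bcl2a1a and Bcl2a1b), 98.8% (Bcl2a1a and Bcl2a1d) and 99.1% (Bcl2a1b and Bcl2a1d) of aligned bases. Of all windows of 150 bases, the length sequenced, 28.2% of those in Bcl2a1a, 14.2% in Bcl2a1b and 30.3% in Bcl2a1d were present unchanged in another copy, and a read that lies in such a window cannot be given to 1 gene. With 100 bases, as for a trimmed read, these shares were 43.5%, 31.1% and 54.7%. Within the last 500 bases of the transcripts, nearest the 3′ end, they were 12.3%, 7.69% and 19.9% for 150 bases. For 100 bases they were 35.7%, 32.9% and 57.1% there. The counts of the single copies are uncertain for that reason, and the sum of the 3 copies is given beside them. The upstream sequences of the copies are shown because the copies differed in level by class while their start regions were nearly the same. Capitals mark matches to AP-1 (TGANTCA) and to PU.1 (GAGGAA), each searched on both strands. The stretches are given 5′ to 3′ on the strand of the gene, from RefSeq on GRCm38.p6, at chr9:88956760-88956855 (plus strand), chr9:89199069-89199164 (plus strand) and chr9:88731915-88732004 (minus strand).
Bcl2a1a: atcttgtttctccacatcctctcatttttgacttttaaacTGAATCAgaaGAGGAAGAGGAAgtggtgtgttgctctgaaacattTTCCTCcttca
Bcl2a1b: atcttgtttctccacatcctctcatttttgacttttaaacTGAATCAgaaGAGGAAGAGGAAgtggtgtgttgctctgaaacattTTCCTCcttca
Bcl2a1d: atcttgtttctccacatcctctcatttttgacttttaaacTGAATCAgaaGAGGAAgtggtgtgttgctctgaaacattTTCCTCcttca
Each stretch held 1 AP-1 match, and PU.1 matched 3 times in Bcl2a1a and Bcl2a1b and 2 times in Bcl2a1d. Over the promoters of the table (250 bases before to 50 after a start site), AP-1 matched in 7.81% and PU.1 in 28.3% of 32851. Promoters of 9 of the 10 members were searched, with Pmaip1 left out, and AP-1 matched in 3 of these 9 genes, the 3 copies. PU.1 matched in 4 of the 9, the 3 copies and Bcl2. An NF-kB site matched in 1 of the 9 (Bcl2l1, in 1 of its promoters), against 4.51% of all promoters. A C/EBP match (TTGCNNAA) stood in Cflar only, against 10.8%. The member counts are by gene and the background is by promoter, and Bcl2l1 and Bcl2l11 had more than 1 promoter searched. All are matches of letters in a window and say nothing of binding.

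The other members lie at chr3:95658788-95663176 (Mcl1), chr2:152780668-152831728 (Bcl2l1), chr2:128126038-128162547 (Bcl2l11), chr1:106538178-106714274 (Bcl2), chr7:45461697-45466898 (Bax), chr1:58711508-58758884 (Cflar) and chr18:66458533-66465565 (Pmaip1), all protein-coding on GRCm38.

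The WT library held 3467 barcodes and 15869215 unique molecular identifiers (UMIs, counts of single captured RNA molecules), and the KO library 3080 barcodes and 11808230 UMIs. After filtering, 2696 WT and 1999 KO cells remained, with median UMIs per cell of 3413 and 2671, and 6 of their barcodes occurred in both libraries. Neutrophil-like cells numbered 678 and 404 (WT and KO), monocyte-like cells 659 and 467, macrophage-like cells 533 and 299, dendritic-cell (DC)-like cells 229 and 404, and T- or NK-cell-like cells 66 and 121. The members were kept out of the clustering. The neutrophil-like class joined 2 clusters, each with 10 of 12 neutrophil markers raised. One of them had all 10 granule transcripts raised (granule-high, 493 and 86 cells) and the other 5 of 10 (granule-low, 185 and 318 cells). The granule-low cluster was shallow, with median UMIs of 1141 and 913.5 beside 3413 and 2671 over all cells kept. None of its 10 leading genes was a marker of any list. Cluster 5, with neutrophil and monocyte markers together, was left unnamed and counted among the other cells. So were cluster 8 (130 and 157 cells), with 4 of 6 type 2 DC markers raised, and cluster 11 (13 and 20 cells), led by proliferation genes. The DC-like class therefore lacks the cells of cluster 8. Levels are given as counts per 1e6 UMIs of the same cells (CPM), and since 3′ counts depend on the gene, levels are compared between cells and not between genes.

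Taken as a whole class, neutrophil-like cells carried the highest level of Mcl1, Bcl2l1, Bcl2l11 and Cflar of the 5 classes in both libraries. Their level of the Bcl2a1 copies was the lowest or next to lowest. Mcl1, Bcl2l1, Bcl2l11, Pmaip1 and Cflar, 5 of the 10 members, were at least 1.5-fold higher than in all other cells of the same library in WT and again in KO, against 15.6% of 7330 genes in WT and 15.8% of 6482 in KO. The 3 Bcl2a1 copies were at least 1.5-fold lower in both, against 67.6% and 68.6% of genes, so the lower level of the copies was what most genes showed. Of the 10 members 9 reached the minimum of 100 UMIs, with Bcl2 below it. The median log2 ratio of these 9 was 0.62 in WT and 0.71 in KO, beside -1.38 and -1.49 over all genes tested. The part of the high granule and S100 transcripts in these shares was not tested. Because the members were chosen with earlier results of these data known, the counts and medians describe them and do not test them against all genes. Scaling by TMM, which rescales the totals so that the typical gene is level, moved every log2 ratio of this comparison up by 0.86 in WT and 0.69 in KO.

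Among the pro-survival members, Mcl1 stood at 2924 CPM (2845 to 3006) in WT and 2347 CPM (2212 to 2488) in KO neutrophil-like cells. The other cells held 1346 and 1098 CPM of Mcl1, which gives a log2 ratio of 1.12 (1.07 to 1.17) in WT and 1.10 (1.00 to 1.19) in KO. Neutrophil-like cells were 14.2% of all WT UMIs but held 26.5% of the Mcl1 UMIs, and in KO 6.36% and 12.7%. Below neutrophil-like cells came monocyte-like cells with 1532 and 1470 CPM of Mcl1. Macrophage-like (1157 and 1039 CPM) and DC-like cells (1188 and 953 CPM) followed, in opposite order in the 2 libraries, with overlapping intervals in WT. T- or NK-cell-like cells were lowest in Mcl1, at 785 and 632 CPM. In cluster 5, which shares markers of both types, Mcl1 lay between the neutrophil-like and the monocyte-like level, at 1943 CPM in WT and 1674 CPM in KO.

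Bcl2l1, which encodes BCL-XL, separated the classes more sharply than Mcl1. It was at 326 CPM (300 to 354) in WT and 243 CPM (201 to 292) in KO neutrophil-like cells, and at 86.4 and 92.5 CPM in all other cells. The log2 ratio was 1.92 (1.76 to 2.07) in WT and 1.40 (1.10 to 1.68) in KO. DC-like cells came next with 200.2 and 191 CPM, and in KO the intervals of neutrophil-like and DC-like cells overlapped. Taken alone, the granule-low neutrophil-like cluster was at 140 CPM (96.7 to 195) in WT and 232 CPM (183 to 291) in KO. The WT value lay below that of DC-like cells, with overlapping intervals. Monocyte-like cells were lowest, with 31.3 and 29.1 CPM, so that the highest class exceeded the lowest 10.4-fold in WT and 8.36-fold in KO.

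The Bcl2a1 copies ran the other way. DC-like cells were highest in all 3 copies in both libraries, followed by monocyte-like and then macrophage-like cells, with no overlap between these neighbours. Bcl2a1b was at 1866 and 1514 CPM in DC-like, 1037 and 906 CPM in monocyte-like, 827 and 795 CPM in macrophage-like and 398 and 254 CPM in neutrophil-like cells (WT and KO). The copies did not fall alike in neutrophil-like cells. The log2 ratio over the other cells was -1.14 (-1.35 to -0.94) in WT and -1.53 (-1.99 to -1.14) in KO for Bcl2a1a, and -1.37 (-1.48 to -1.26) and -2.06 (-2.34 to -1.81) for Bcl2a1b. For Bcl2a1d it was -2.77 (-3.07 to -2.51) and -3.33 (-4.06 to -2.75). Bcl2a1d had 62.9 CPM in WT and 43.7 CPM in KO neutrophil-like cells, on 110 and 21 UMIs, against 432 and 451 CPM in the other cells. Under TMM scaling Bcl2a1a and Bcl2a1b in WT were lower by less than 1.5-fold (log2 ratio -0.28 and -0.51), and the sign stayed.

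The makeup of the A1 signal also differed by class. In neutrophil-like cells Bcl2a1d made up 10.8% (8.94 to 12.8) of the UMIs on the 3 copies in WT and 10.9% (6.90 to 16.2) in KO. In DC-like cells its share was 27.8% and 26.6%, in monocyte-like cells 24.9% and 24.4%, and in macrophage-like cells 22.1% and 20.4%. Its interval in neutrophil-like cells lay below those of these 3 classes in both libraries. T- or NK-cell-like cells, with few UMIs, gave 24.7% (16.4 to 34.8) and 21.2% (15.5 to 27.8). Cluster 5 was at 23.9% and 22.7%, near the monocyte-like share. Summed over the copies, A1 UMIs were 583 CPM (548 to 620) in WT and 399 CPM (345 to 460) in KO neutrophil-like cells, 1761 and 1633 CPM in monocyte-like, 1325 and 1233 CPM in macrophage-like, and 3351 and 2657 CPM in DC-like cells.

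**Figure D1:**
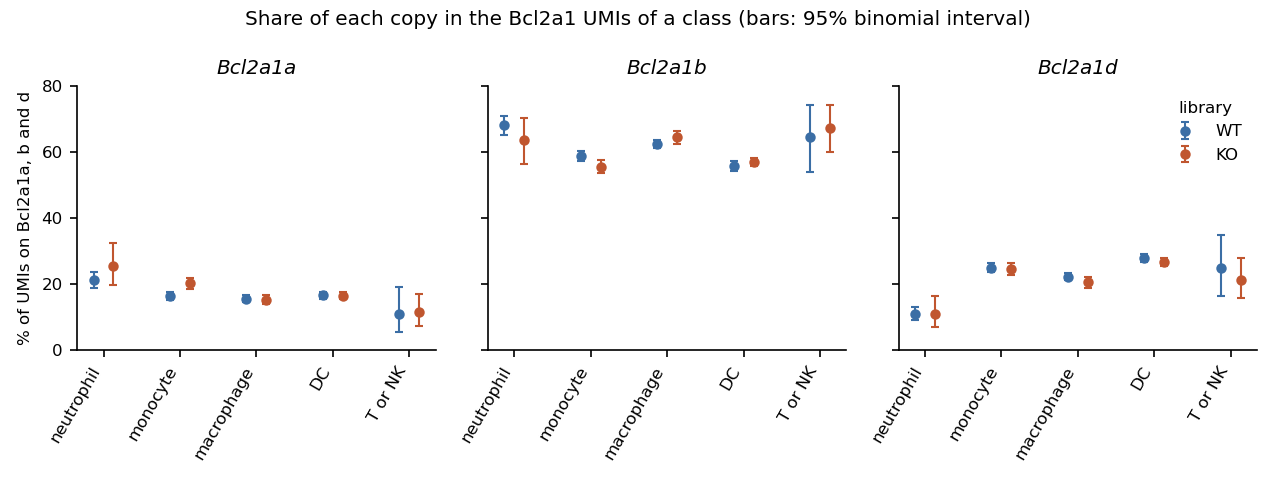
Share of Bcl2a1a, Bcl2a1b and Bcl2a1d in the UMIs counted on the 3 copies (y axis, percent) in 5 classes (x axis) of the WT (blue) and KO (orange) library, with 95% exact binomial intervals. Bcl2a1d sat at 10.8% and 10.9% in neutrophil-like cells and between 20.4% and 27.8% in monocyte-like, macrophage-like and DC-like cells.

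RNA of other cells can add to a low count. The macrophage markers summed to 242 CPM in WT and 329 CPM in KO neutrophil-like cells, which was 1.61% and 1.59% of their level in macrophage-like cells. Mature DC markers stood at 0.58% and 2.15% of their DC-like level and monocyte markers at 13% and 8.27% of their monocyte-like level, with F13a1 and Vcan at 0 in both libraries. Bcl2a1d in neutrophil-like cells was at 14.3% and 11% of its monocyte-like level and Bcl2a1b at 38.3% and 28.0%. Whether the Bcl2a1d UMIs came from monocyte RNA was not tested.

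Bcl2 had only 55 UMIs in the whole WT library and 31 in KO. In neutrophil-like cells 17 and 6 UMIs were counted, a level of 9.72 CPM (5.66 to 15.6) and 12.5 CPM (4.58 to 27.2). In DC-like cells there were 2 UMIs in each library. At this depth no order of the classes could be read in KO, where all neighbouring intervals overlapped.

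**Figure D2:**
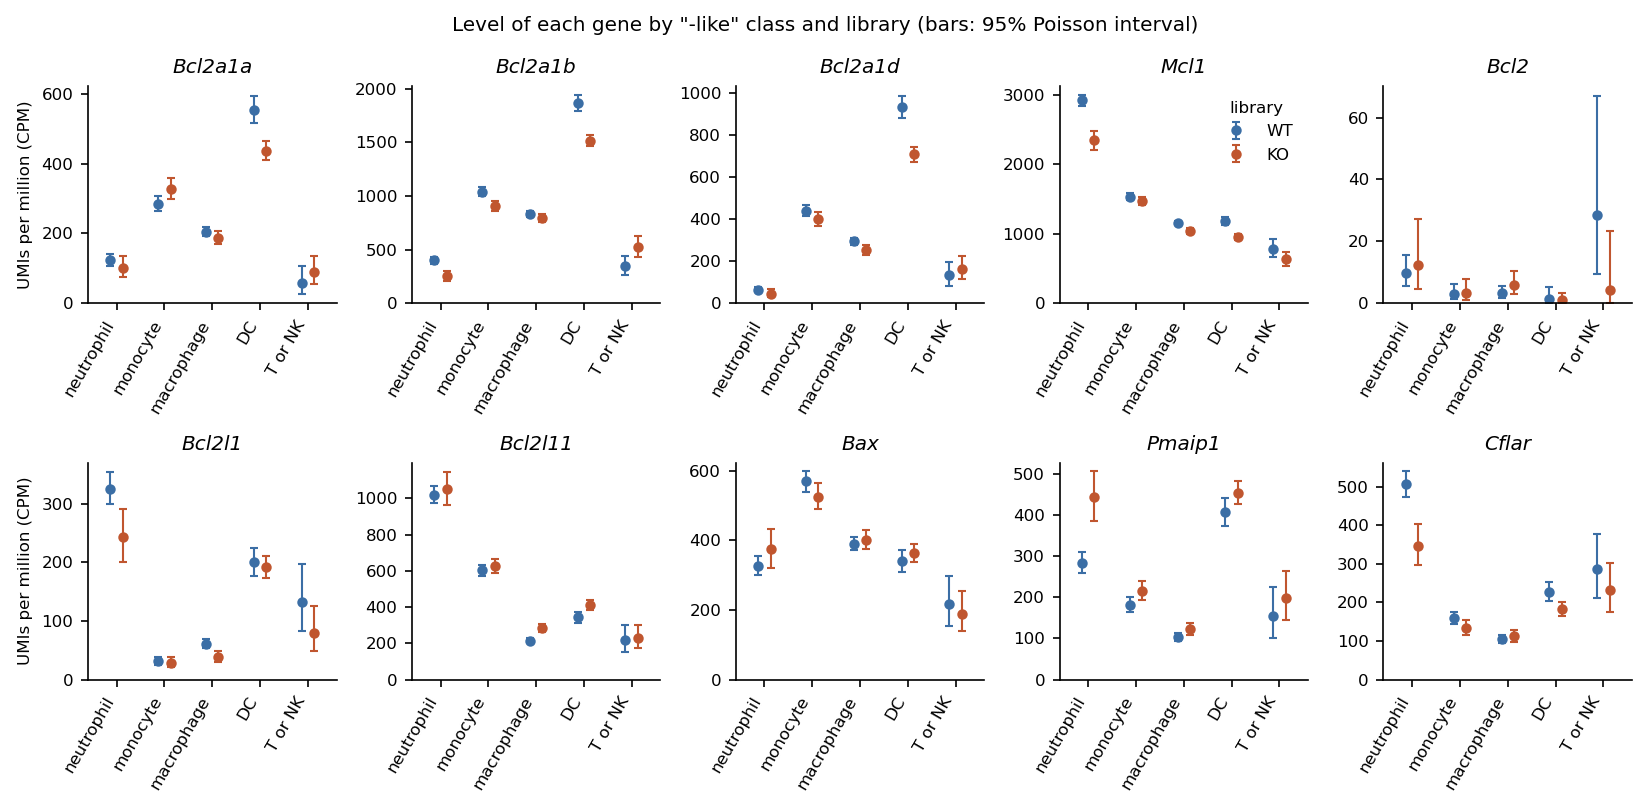
Level of each member in CPM (y axes, each from 0) in the neutrophil-, monocyte-, macrophage-, DC- and T- or NK-cell-like classes (x axes) of the WT (blue) and KO (orange) library, with exact 95% Poisson intervals. Mcl1 was highest in neutrophil-like cells at 2924 and 2347 CPM, and Bcl2a1b was highest in DC-like cells at 1866 and 1514 CPM.

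The BH3-only genes were also high in neutrophil-like cells. Bcl2l11 (BIM) stood at 1019 CPM (972 to 1067) in WT and 1053 CPM (963 to 1149) in KO, against 399 and 434 CPM in all other cells, a log2 ratio of 1.35 (1.27 to 1.43) and 1.28 (1.14 to 1.42). Monocyte-like cells followed with 603 and 625 CPM of Bcl2l11, then DC-like cells with 343 and 411 CPM, and macrophage-like cells had 214 and 283 CPM. As a whole class, neutrophil-like cells thus held the highest level both of Mcl1 and of Bcl2l11. Taken alone, the granule-low cluster had 653 CPM of Bcl2l11 (555 to 762) in WT and 1066 CPM in KO. Its WT interval overlapped that of monocyte-like cells (572 to 635). The number of Mcl1 UMIs per Bcl2l11 UMI was 2.87 (2.72 to 3.03) in WT and 2.23 (2.01 to 2.48) in KO neutrophil-like cells, close to the 2.54 (2.39 to 2.71) and 2.35 (2.18 to 2.54) of monocyte-like cells. In macrophage-like cells it was higher, at 5.4 (5.03 to 5.80) and 3.67 (3.34 to 4.03). In all 4 of these large classes the ratio was lower in KO than in WT, with overlapping intervals in monocyte-like cells. By cluster this did not hold throughout. Monocyte-like cluster 0 had 2.46 in WT and 2.57 in KO, and the granule-high intervals overlapped (2.66 to 2.98 in WT and 1.93 to 2.81 in KO). Outside the named classes, cluster 8 had 3.25 (2.71 to 3.92) in WT and 1.63 (1.42 to 1.88) in KO. Bcl2l11 there was at 349 CPM (296 to 409) in WT and 633 CPM (567 to 705) in KO. Cluster 11, with few UMIs, had 5.36 and 1.80, and cluster 5 had 2.79 and 2.73 with overlapping intervals (WT and KO). How often the ratio of other gene pairs was lower in KO was not counted.

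Pmaip1 (NOXA), whose product binds MCL-1, was highest in DC-like cells, with 407 CPM (374 to 442) in WT and 454 CPM (427 to 483) in KO. Neutrophil-like cells came second with 283 CPM (259 to 310) and 443 CPM (386 to 507), and in KO their interval overlapped that of DC-like cells. Over the other cells of its library the log2 ratio of Pmaip1 was 0.62 (0.47 to 0.76) in WT and 0.71 (0.49 to 0.91) in KO, near the limit of 1.5-fold. Averaging the level of single cells brought the WT value to 0.41, below that limit.

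Bax, the effector, was the member whose level varied least between classes. It ranged from 218 CPM in T- or NK-cell-like to 569 CPM in monocyte-like cells in WT and from 190 to 525 CPM in KO, in the same 2 classes. Neutrophil-like cells held 326 CPM (300 to 354) in WT and 374 CPM (322 to 433) in KO, beside 438 and 418 CPM in all other cells. The log2 ratio of -0.42 (-0.55 to -0.30) in WT and -0.15 (-0.38 to 0.06) in KO did not reach 1.5-fold, and TMM scaling turned both positive (0.44 and 0.53). Neutrophil-like cells had 1.00 Bcl2l1 UMI per Bax UMI in WT (0.89 to 1.12) and 0.65 in KO (0.51 to 0.82). The direction was not the same in both clusters of the class. It was 1.17 (1.03 to 1.33) in WT and 0.71 (0.47 to 1.08) in KO granule-high cells. In granule-low cells KO was the higher, at 0.62 (0.46 to 0.83) against 0.30 (0.20 to 0.44) in WT. Monocyte-like cells had 0.05 and 0.06.

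Cflar (c-FLIP) was at 506 CPM (473 to 540) in WT and 347 CPM (297 to 404) in KO neutrophil-like cells, and at 165 and 149 CPM in the other cells. That is a log2 ratio of 1.62 (1.5 to 1.74) and 1.23 (0.98 to 1.46). T- or NK-cell-like cells came second with 286 and 232 CPM, and in KO their interval overlapped that of neutrophil-like cells. Macrophage-like cells had the lowest level of Cflar of the classes, 105 and 112 CPM, and in KO their interval overlapped that of monocyte-like cells. Among monocyte-like cells, cluster 4 was at 94.0 and 71.0 CPM and cluster 0 at 221 and 212 CPM (WT and KO).

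**Figure D3:**
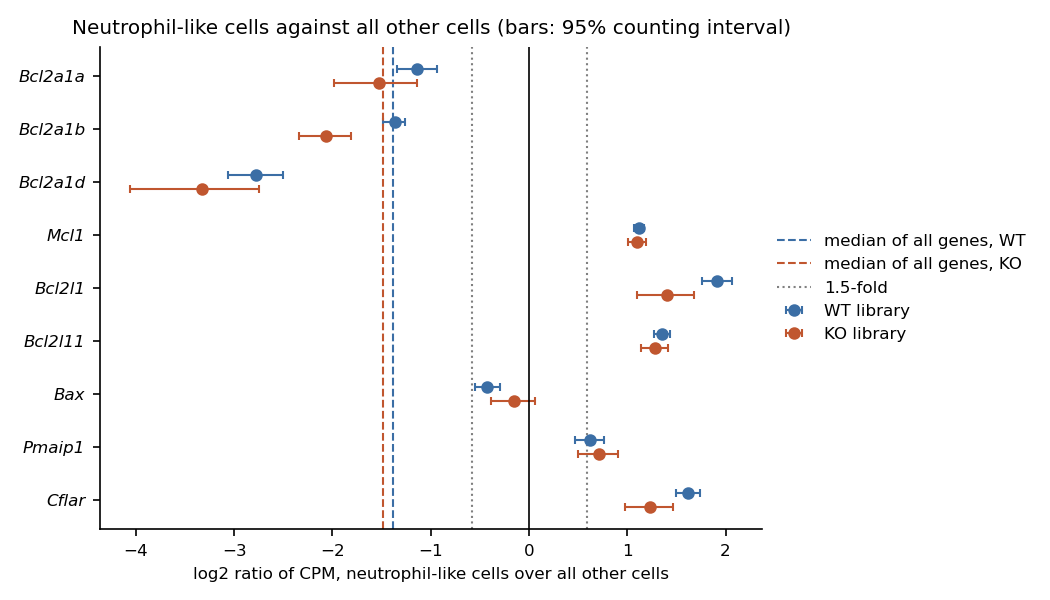
log2 ratio of CPM in neutrophil-like cells over all other cells of the same library (x axis) for the 9 members with at least 100 UMIs (y axis), WT in blue and KO in orange, with 95% intervals for counting error. Dashed lines mark the median of all genes tested (-1.38 in WT and -1.49 in KO) and dotted lines a 1.5-fold difference, which Mcl1, Bcl2l1, Bcl2l11, Pmaip1 and Cflar passed upward and the 3 Bcl2a1 copies downward in both libraries.

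Counted by cell, Mcl1 and Bcl2l11 were again most often seen in neutrophil-like cells. After every cell was thinned to 500 UMIs, which left out no cell of these classes, 73.5% (70.0 to 76.7) of WT and 67.3% (62.5 to 71.9) of KO neutrophil-like cells had a UMI of Mcl1. The share was 50.7% and 49.3% of monocyte-like, 40.5% and 33.4% of macrophage-like and 43.2% and 40.8% of DC-like cells. Bcl2l11 was seen in 39.7% (36.0 to 43.5) and 37.6% (32.9 to 42.5) of neutrophil-like cells, and in 9.38% and 13% of macrophage-like cells. Bcl2a1d was seen in 2.65% (1.58 to 4.16) and 1.98% (0.86 to 3.86) of neutrophil-like and in 36.7% and 28.7% of DC-like cells. Without thinning, Mcl1 was seen in 95.9% and 87.4%, Bcl2l11 in 78.0% and 63.9%, and Bcl2a1d in 13.4% and 4.46% of neutrophil-like cells, whose median depth was 2504 UMIs in WT and 1051 in KO. Free RNA was gauged in T- or NK-cell-like cells (median depth 2083 and 1552 UMIs), which should lack S100a8, a calcium-binding protein of neutrophils. There S100a8 stood at 11.7% of its neutrophil-like level in WT and 3.89% in KO, while Mcl1 stood at 26.8% and 26.9% and Bcl2l11 at 21.4% and 22.0%. For the thinned share of cells with Mcl1, T- or NK-cell-like cells gave 25.8% (15.8 to 38.0) and 33.1% (24.8 to 42.2).

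The remaining genes of the death pathways were taken as a list of 56. In WT 38 of them reached 100 UMIs over neutrophil-like and other cells, of which 7 were at least 1.5-fold higher in neutrophil-like cells and 23 lower, and in KO 33, 7 and 22. Against the 15.6% and 15.8% of all genes that were higher and the 67.6% and 68.6% that were lower, these counts were near the background. The median log2 ratio of the list was -1.30 and -1.19, near that of all genes (-1.38 and -1.49). The list's genes with the largest differences were lower and nearly absent. In WT these were Bcl2l14 (1 UMI in neutrophil-like cells), Casp6 and Htra2 (5 UMIs each), and Tradd and Bcl2l2 (2 UMIs each), and in KO Bad, Birc5, Aifm1 and Bcl2l13 had 0 UMIs, where 318, 197, 147 and 105 were counted in the other cells. Fas, the death receptor bound by Fas ligand, came next, with 456 CPM against 62.4 CPM in WT and 537 against 44.1 CPM in KO, log2 ratios of 2.87 (2.72 to 3.02) and 3.61 (3.36 to 3.85). The genes on the higher side were singled out after their values were seen. The TNF receptors Tnfrsf1b (log2 ratio 1.61 in WT and 2.08 in KO) and Tnfrsf1a (1.17 and 1.13), Birc3, an inhibitor of apoptosis protein (1.57 and 1.51), and Foxo3, a transcription factor (1.29 and 1.65), were higher in both libraries. Ddit3, which encodes the stress factor CHOP, had log2 ratios of 1.86 and 3.11. Among the apoptosome and caspase genes 8 of the 9 that reached the minimum were lower in WT and 8 of 8 in KO, in a comparison in which 67.6% and 68.6% of all genes were lower. Between the libraries, 14 of the 56 reached the minimum in neutrophil-like cells, and of these Ddit3 was higher in KO (81.1 against 36.0 CPM, log2 ratio 1.18, 0.56 to 1.77) and Traf1, an adaptor of TNF receptors, was lower (97.8 against 150 CPM, -0.60, -1.09 to -0.16). These 2 of 14 are no larger a share than the 19.2% of all genes past 1.5-fold in that comparison.

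Within neutrophil-like cells the 2 clusters differed in WT and hardly in KO. In WT, Bcl2l1 was at 356 CPM (326 to 387) in the granule-high and 140 CPM (96.7 to 195) in the granule-low cluster, a log2 ratio of 1.33 (0.85 to 1.90). Bcl2l11 (log2 ratio 0.72, 0.49 to 0.97) and Pmaip1 (0.65, 0.22 to 1.13) were also higher in the granule-high cluster by at least 1.5-fold and Bax was lower (-0.63, -0.92 to -0.32). These were 4 of the 9 members with 100 UMIs, in a comparison in which 55.6% of 1898 genes passed 1.5-fold in either direction, so the members passed no more often than genes at large. In KO none of 7 members passed, against 10.5% of 772 genes, and Bcl2l1 was at 266 CPM (192 to 360) and 232 CPM (183 to 291). Mcl1 was at 3034 and 2250 CPM in the WT clusters and at 2382 and 2329 CPM in those of KO. The granule-low clusters of the libraries were not alike in markers. Neutrophil markers summed to 19753 CPM in WT and 29872 CPM in KO, and granule markers to 1486 and 2540 CPM. Eosinophil markers summed to 160 CPM in WT and 31.0 CPM in KO and B- or plasma-cell markers to 148 and 31.0 CPM. The part of these in the differences was not tested. TMM scaling shifted the WT comparison by 1.04 and turned Bax positive (0.41).

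Between the libraries, neutrophil-like cells of KO differed from those of WT by at least 1.5-fold in 2 of 9 members, against 19.2% of 2179 genes, a share close to that background. Pmaip1 was higher in KO, at 443 CPM (386 to 507) against 283 CPM (259 to 310), a log2 ratio of 0.65 (0.41 to 0.88), where 9.87% of genes were higher. It fell just short of 1.5-fold with 500 to 6000 detected genes (0.58) and under TMM scaling (0.51), which shifted this comparison by -0.14. The share of cells with a UMI of Pmaip1 after thinning was 19.3% (15.6 to 23.5) in KO and 10.6% (8.40 to 13.2) in WT. Bcl2a1b was lower in KO, at 254 CPM (211 to 303) against 398 CPM (369 to 428), a log2 ratio of -0.64 (-0.94 to -0.37), where 9.32% of genes were lower. Cflar (-0.54, -0.79 to -0.30), Bcl2l1 (-0.42, -0.72 to -0.13) and Mcl1 (-0.32, -0.41 to -0.22) had log2 ratios whose intervals lay below 0 without reaching 1.5-fold. For Bcl2l11 (0.05, -0.10 to 0.19), Bax (0.20, -0.05 to 0.44), Bcl2a1a (-0.26, -0.75 to 0.18) and Bcl2a1d (-0.50, -1.27 to 0.16) the interval held 0. Other measures moved with this comparison. The KO cells were shallower (median 1051 against 2504 UMIs), 318 of the 404 were in the granule-low cluster against 185 of 678 in WT, and the interferon-response markers summed to 358 CPM in KO and 191 CPM in WT. The neutrophil markers summed to 36152 CPM in KO and 50055 CPM in WT, and the granule markers to 4768 and 9550 CPM. Mature DC markers stood at 139 CPM in KO and 38.3 CPM in WT, fibroblast markers at 60.3 and 15.4 CPM with Dcn at 0 in both, macrophage markers at 329 and 242 CPM and monocyte markers at 198 and 346 CPM. The part of these in the differences was not tested.

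Taken cluster by cluster, Pmaip1 was higher in KO in both, at 444 against 299 CPM in the granule-high cluster (log2 ratio 0.58, 0.19 to 0.94, just under 1.5-fold) and at 443 against 189 CPM in the granule-low cluster (1.22, 0.74 to 1.74). Bcl2a1b was lower in both, with log2 ratios of -0.66 (-1.19 to -0.21) and -0.66 (-1.10 to -0.23). Cflar was lower in KO in the granule-high cluster, at 310 against 526 CPM (-0.75, -1.21 to -0.34), and near equal in the granule-low cluster, at 365 against 382 CPM (-0.06, -0.47 to 0.35). Mcl1 went the same way, at 2382 against 3034 CPM (-0.35, -0.50 to -0.20) and at 2329 against 2250 CPM (0.05, -0.11 to 0.21). In the granule-low cluster Bcl2l11 (0.70, 0.43 to 0.99) and Bcl2l1 (0.72, 0.13 to 1.36) were higher in KO, past 1.5-fold in 12 and 8 of 16 alternative settings, whereas Pmaip1 passed there in all 16 run. TMM scaling shifted the granule-low comparison by 0.52, which left Bcl2a1b at -0.14 and Cflar at 0.46, and the granule-high one by -0.24. Altogether 2 of 8 members passed in the granule-high cluster, against 22.6% of 1731 genes, and 4 of 7 in the granule-low cluster, against 46% of 951 genes.

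**Figure D4:**
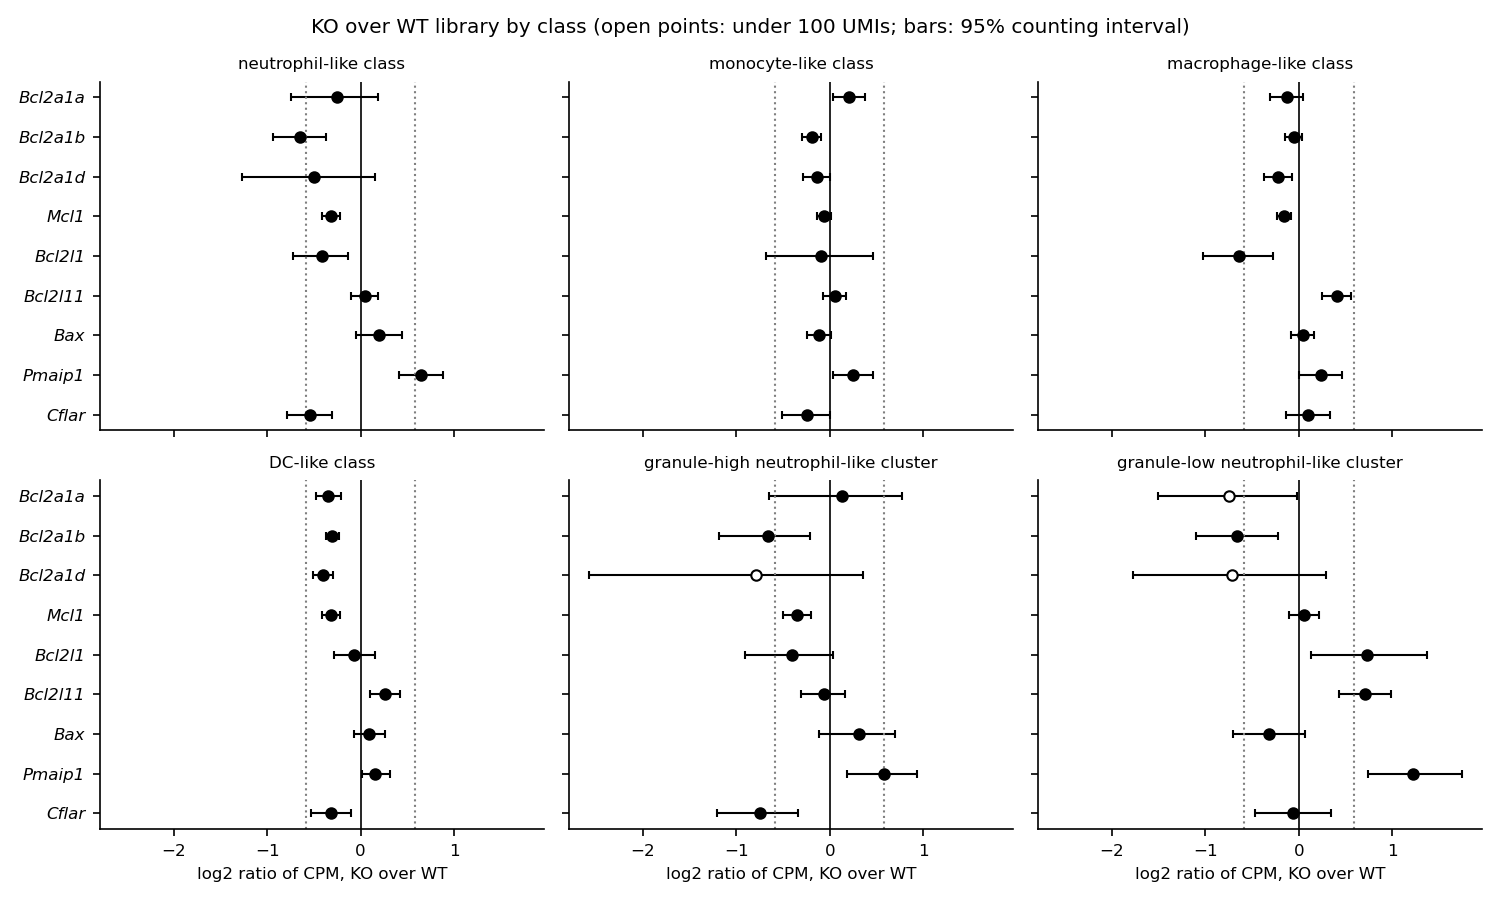
log2 ratio of CPM, KO over WT (x axes), of 9 members (y axes) in the 4 large classes and the 2 neutrophil-like clusters, with 95% intervals for counting error, dotted lines at 1.5-fold and open points for members under 100 UMIs. Pmaip1 was at 0.65 and Bcl2a1b at -0.64 in the neutrophil-like class, and no member passed 1.5-fold in the monocyte-like or DC-like class.

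In the other classes, each taken whole, the members differed little between the libraries. Some differed more within single clusters. The cluster values below were picked after they were seen, and members past 1.5-fold were not counted by cluster there. In monocyte-like cells none of 9 members passed 1.5-fold, against 6.16% of 4380 genes. Mcl1 was there at 1470 CPM in KO and 1532 CPM in WT. The log2 ratios of Bcl2a1a (0.20, 0.03 to 0.37) and Pmaip1 (0.25, 0.03 to 0.46) lay above 0 and that of Bcl2a1b (-0.19, -0.29 to -0.10) below. The clusters of the class went opposite ways in Bcl2a1a. In monocyte-like cluster 4 it was at 415 CPM (372 to 462) in KO and 280 CPM (250 to 313) in WT. In monocyte-like cluster 0 it was at 221 CPM (187 to 260) in KO and 290 CPM (261 to 322) in WT. In macrophage-like cells 1 of 9 passed, against 5.1% of 5800 genes: Bcl2l1, at 38.8 CPM (30.7 to 48.5) in KO and 60.8 CPM (53.6 to 68.6) in WT, a log2 ratio of -0.64 (-1.03 to -0.28). It passed in 10 of 16 alternative settings. In macrophage-like cluster 2 Bcl2l1 was at 27.9 CPM (19.0 to 39.6) in KO and 56.2 CPM (46.7 to 66.9) in WT. In macrophage-like cluster 7 its intervals overlapped (38.4 to 69.6 in KO and 55.1 to 77.8 in WT). Bcl2l11 was higher in KO macrophage-like cells by a log2 ratio of 0.40 (0.25 to 0.55), below 1.5-fold. In DC-like cells, without those of cluster 8, none of 9 passed, against 7.27% of 4262 genes. There the log2 ratios of Bcl2a1a (-0.34, -0.48 to -0.21), Bcl2a1b (-0.30, -0.37 to -0.23), Bcl2a1d (-0.40, -0.51 to -0.29) and Mcl1 (-0.32, -0.41 to -0.22) lay below 0, as did that of Cflar (-0.32, -0.54 to -0.11). Those of Bcl2l11 (0.26, 0.10 to 0.42) and Pmaip1 (0.16, 0.01 to 0.31) lay above 0, the latter turning to -0.04 when the level of single cells was averaged. The A1 sum was 3351 CPM in each of the DC-like clusters in WT, and in KO 2970 CPM in the mature (cluster 6) and 2305 CPM in the type 1 cluster (cluster 9). In the type 1 cluster Bcl2a1a was at 354 CPM (319 to 391) in KO and 594 CPM (534 to 659) in WT. Bcl2a1d there was at 603 CPM (558 to 652) in KO and 942 CPM (866 to 1023) in WT. In the mature cluster Bcl2a1a was at 510 and 522 CPM and Bcl2a1d at 798 and 924 CPM (KO and WT).

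Over all cells, where the class makeup of the libraries enters, none of 9 members passed 1.5-fold, against 15.9% of 8470 genes. Mcl1 was lower in KO by a log2 ratio of -0.42 (-0.45 to -0.38), beyond the -0.06 to -0.32 seen within the 4 large classes, and neutrophil-like cells, highest in Mcl1, were 25.1% of WT and 20.2% of KO cells. Cluster 5, also high in Mcl1, was 12.8% and 4.45%. Pmaip1 was higher in KO over all cells by 0.51 (0.42 to 0.59), within the 0.16 to 0.65 seen in the 4 large classes. DC-like cells, highest in Pmaip1, were 8.49% of WT and 20.2% of KO cells and held 11.4% and 30.1% of all UMIs. The part of class makeup in the differences of Mcl1 and Pmaip1 over all cells was not tested.

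The genes whose level over 8 named classes in both libraries (16 points) ran most like that of a member are given as a description, since the points share libraries and depth. For Bcl2a1b these were Bcl2a1d (Pearson r = 0.96), Trafd1 (0.95) and Bcl2a1a (0.95), the copies being near-identical in sequence as described above. For Bcl2a1d they were Bcl2a1b (0.96), Arl5c (0.95) and Tank (0.92). For Mcl1 they were Slc7a11 (0.94), Col4a2 (0.93) and Rhov (0.91), for Bcl2l11 Ptafr (0.90), Syk (0.87) and Mafg (0.87), and for Cflar Cap1 (0.91), Vps4b (0.88) and Kpna4 (0.87). The points include small classes of B- or plasma-cell-like (11 and 21), epithelial-like (16 and 12) and mast-cell-like cells (16 and 5, WT and KO). Over the 4 large classes alone (8 points), r with Bcl2l11 was 0.84 for Ptafr, 0.74 for Syk and 0.92 for Mafg. For the other pairs it lay between 0.87 and 0.99 there.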

How the data were processed

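The deposited matrices held UMI counts per gene and cell, which the authors made from a SeekOne MM 3′ kit (the labels also name 10x Genomics). The submitters' notes name Cell Ranger 2.1.1 and mm10. The study's filter of 200 to 4000 detected genes and no more than 5% mitochondrial UMIs left 2696 of 3467 WT and 1999 of 3080 KO barcodes (77.8% and 64.9%). This is a smaller share than its text describes, and whether the deposited matrices are those it filtered is not known. These were clustered with Seurat 5.3.0 (R 4.3.3) on 2000 variable genes and 20 components at resolution 0.8 (15 clusters, no integration). The 10 members and 56 pathway genes were left out of the variable genes. A cluster took a "-like" name from at least 3 and 50% of a marker list raised 2-fold. It stayed unnamed if lists of different types qualified or if proliferation genes led it. It also stayed unnamed if another type had more markers among its 10 leading genes. Cluster 8 was left unnamed for that last reason, through Klrd1, an NK-cell marker. No doublets were removed: Scrublet (scanpy 1.11.5) marked 0.21% of cells, too few to rely on. UMIs were summed per class and library and divided by the total. Ratios carried 0.5 UMI as pseudocount, and genes with 100 UMIs over both sets were compared. Intervals are exact (Poisson, conditional binomial, Clopper-Pearson). A member counted as past the limit at 1.5-fold. The named genes were the 10 members, pathway genes past that limit and the 3 genes most like each of 5 members by log2(CPM + 10). The ratio and its interval were run on simulated Poisson counts, the model that the interval assumes. That run checks the calculation only and holds no spread between cells or mice. Of 32285 gene identifiers 32158 were in GENCODE M21. Members and lists were chosen with earlier results of these data known. The deleted gene was not analysed here. Alternatives used TMM in edgeR 4.0.16.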

Additional observations from a re-analysis of the deposited data

Results flagged for a closer look

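Bcl2l1 went opposite ways between the libraries in 2 sets of cells. Its log2 ratio of KO over WT was 0.72 (0.13 to 1.36) in the granule-low neutrophil-like cluster and -0.64 (-1.03 to -0.28) in the macrophage-like class, and with 1 library each the difference was not tested. The former passed 1.5-fold in 8 and the latter in 10 of 16 alternatives.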

How the results depend on the processing

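With 1 library per genotype no replicate could be left out, and every interval covers counting error only. No paired analysis was possible because the groups have 1 library each and share no replicate. Pooled mice, depth and genotype cannot be told apart between the libraries. Over 94 member ratios, 1440 of 1522 alternative values stayed within the interval of the reported value and the others lay outside it. Of all alternative values 64 had the opposite sign, 48 of them still within the interval and 16 outside it, 10 of the 16 under TMM scaling. Of ratios reported past 1.5-fold, 1 changed sign: Bax in granule-high over granule-low WT cells, at 0.41 under TMM scaling. The counts of 8 members past 1.5-fold in neutrophil-like over other cells moved by less than 1.5 times under every alternative run, in both libraries.

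Other counts moved more. The share of all genes past the limit was taken in the main setting only. The changed counts therefore cannot be read as particular to the members. For KO over WT in neutrophil-like cells (2 members) the count was 4 in cells with at least 1000 UMIs and 0 at 2-fold. In monocyte-like cells (0) it was 1 with at least 1000 UMIs, and in DC-like cells (0) 1 with no minimum. In macrophage-like cells (1) it was 0 with at least 1000 UMIs, with clusters from WT alone, without the 5% of cells of highest Scrublet score (chosen after seeing the data), with a mean over cells, with a pseudocount of 5 UMIs and at 2-fold, and 2 with a minimum of 20 UMIs or none. For granule-high over granule-low cells in WT (4) it was 2 at the higher resolution, 1 after integration, 7 under TMM and 1 at 2-fold, and in KO (0) 1 with no minimum. For KO over WT in granule-high cells (2) it was 1 with 500 to 6000 genes, 30 components, integration or clusters from WT alone, 4 under TMM and 0 at 2-fold. In granule-low cells (4) it was 2 with 500 to 6000 genes, at least 1000 UMIs, higher resolution, integration, clusters from WT alone or a mean over cells, 7 with no minimum and 1 at 2-fold. Members whose thinned share of neutrophil-like cells differed beyond the intervals (1) became 2 at 1000 UMIs and 8 without thinning. Without thinning the median depth of these cells was 2504 UMIs in WT and 1051 in KO. The same count was not made over all genes, so it cannot be read as particular to the members. A changed minimum or fold alters the count by construction, and for the rest the cause was not tested. Pmaip1 in KO over WT neutrophil-like cells passed 1.5-fold in 14 of 16 alternatives (log2 ratio 0.51 to 0.80) and Bcl2a1b in 16 of 16 (-0.78 to -0.60).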

Other observations

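Barcodes left out by the filter, 771 in WT and 1081 in KO with a median of 7.36% and 7.16% mitochondrial UMIs, held less Mcl1 and Bcl2l11 than the cells kept. Mcl1 was at 945 CPM (914 to 977) against 1571 CPM in WT and at 758 CPM (732 to 784) against 1177 CPM in KO. Bcl2l11 was at 217 CPM (202 to 232) against 487 CPM in WT and at 285 CPM (269 to 301) against 473 CPM in KO. The Bcl2a1 copies and Bax were lower there too in both libraries, by log2 ratios of -0.20 to -0.49. Cflar, Pmaip1 and Bcl2l1 were lower in WT only. Among cells kept, the median mitochondrial share was 1.17% and 1.63% in neutrophil-like and 2.73% and 3.01% in monocyte-like cells (WT and KO). It was 3.82% and 3.77% in macrophage-like and 3.64% and 3.85% in DC-like cells. The makeup of the left-out barcodes by class was not analysed, and its part in these differences was not tested.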
